A study of Homo sapiens with 9 samples.

Results

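Deubiquitinases are the proteases that take ubiquitin off proteins, and the human genome encodes several families of them. The genes described here are a subset, set by symbol, of the USP, OTU, UCH, Josephin and JAMM families. BAP1, the enzyme whose transcript the study targeted, is not among them. The symbols were USP or OTUD followed by a number, ATXN3 and its relative ATXN3L, and a fixed set of named members (UCHL1, UCHL3, UCHL5, OTUB1, OTUB2, CYLD, MYSM1, BRCC3, STAMBP, STAMBPL1, JOSD1, JOSD2, YOD1, VCPIP1 and ZRANB1). This gave 69 genes of the 19775 that could be named. They are read by 204 probe sets, of which the 1 with the highest average over the arrays stands for its gene. On the log2 scale, 63 of the 69 averaged 5.44 or more, the median over all probe sets. The other 6 were dimmer (ATXN3L, OTUD7A, USP26, USP29, USP44 and USP45).

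The cells were U2OS, a human osteosarcoma line, in 3 groups of 3 arrays. The first group carried a plasmid for 1 short hairpin RNA against BAP1 (shBAP1 #2), the next a plasmid for another (shBAP1 #1), and the controls a plasmid whose hairpin targets no gene (shControl). All 3 groups were transfected by lipofection, selected with puromycin and held where G1 meets S phase by a double thymidine block, so every comparison is between arrested, selected populations. Whether replicates were separate cultures is not stated in the labels, so the p-values reflect how far these samples spread, and that spread may be technical. The annotation used gave BAP1 as the single symbol of 0 probe sets, its level was not analysed here, and the knockdown could not serve as a check of the labels.

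Most deubiquitinases are cysteine proteases, and those of the JAMM family, such as BRCC3 and STAMBP, use zinc. Different members act on histones, on proteins of DNA repair and replication, on substrates at the proteasome, on receptors at endosomes and on signalling complexes. Many work with partner proteins: USP1, USP12 and USP46 with the WD-repeat protein WDR48, UCHL5 at the proteasome, and BRCC3 in the BRCA1-A and BRISC complexes. BAP1 itself belongs to the UCH family with UCHL1, UCHL3 and UCHL5, and removes ubiquitin from histone H2A.

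Some features of the arrays run alongside the group labels. Replicate 1 of shBAP1 #2 stood nearer to the control arrays (mean correlation with them over all probe sets 0.989) than replicates 2 and 3 did (0.982 and 0.981). Among the 31 deubiquitinase genes called with shBAP1 #2, this array was the one nearest to the control mean for 25. A measure of RNA integrity, the gap between the 3′ and the 5′ probe set for actin, was 0.39 to 0.46 log2 units with shBAP1 #2, 0.39 to 0.41 with shBAP1 #1 and 0.47 to 0.51 in shControl. For GAPDH the same gap overlapped between the groups, at -0.045 to -0.031, -0.052 to -0.034 and -0.061 to -0.018. Their part in the results was not tested. Of 8 markers of mesenchymal and bone-forming cells, 6 lay above the median of probe set means and 2 below it (COL1A2 and ALPL), with group means from the dimmest to the brightest marker of 4.50 to 13.97 for shBAP1 #2, 4.63 to 14.15 for shBAP1 #1 and 4.39 to 14.08 for shControl. Both leukocyte markers (PTPRC and CD3E), 3 of 4 epithelial markers (KRT5, KRT14 and CDH1) and CDH5 of the 2 endothelial markers lay below it. EPCAM, PECAM1 and the neuronal markers RBFOX3 and SYN1 lay above it. PECAM1 averaged 7.05 with shBAP1 #2 and 6.95 with shBAP1 #1, against 7.78 in shControl. The averages of RBFOX3 were 5.96 and 6.14, against 6.93, those of EPCAM 5.92 and 6.03, against 6.57, and those of SYN1 5.93 and 5.74, against 5.77. The part of these markers in the results was not tested.

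Many transcripts of the cell cycle were lower as well. Of 18 genes for DNA replication, 18 were lower with shBAP1 #2, against 16.5% of all genes. With shBAP1 #1 13 were lower, against 12.6% of all genes, and 0 were higher with either. Those 13 were lower with both, where 5.49% of all genes were. Their median, as a log2 difference from the control mean, was -0.83, -1.43 and -1.56 on the 3 arrays of shBAP1 #2 and -0.69, -1.04 and -0.47 on those of shBAP1 #1, against 0.07, -0.13 and 0.07 in shControl. Every array with an shRNA against BAP1 lay below every control array. Of 14 genes of mitosis, 13 were lower with shBAP1 #2, against 16.5% of all genes. With shBAP1 #1 4 were lower and 1 was higher, against 12.6% and 13.0% of all genes. Of the 14, 4 were lower with both, against 5.49%. Their medians were -0.61, -1.53 and -1.49 with shBAP1 #2 and -0.34, -0.61 and -0.16 with shBAP1 #1, against -0.03, -0.05 and 0.10 in shControl. The array of shBAP1 #2 nearest to the controls in both lists was again replicate 1. Both lists were drawn up with earlier results of these data known.

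**Figure D1:**
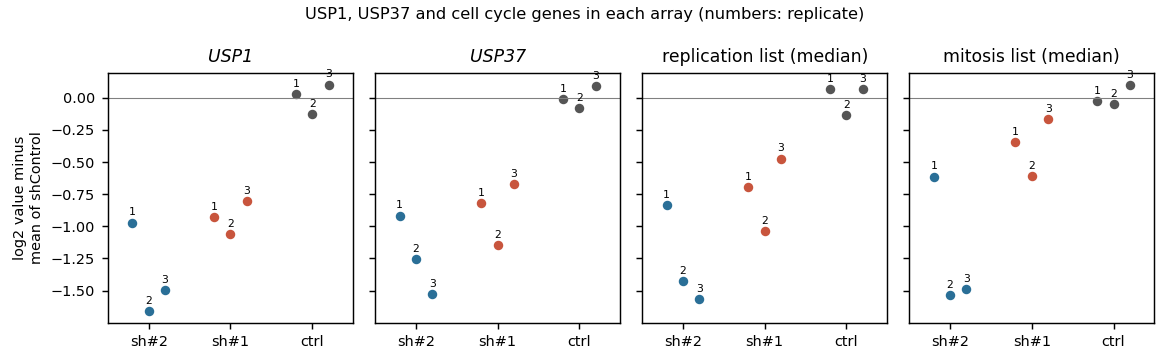
Log2 difference from the mean of the control arrays (vertical axis) for USP1, USP37 and the medians of the 18 replication genes and the 14 mitosis genes, with 1 point, numbered by replicate, for each array of shBAP1 #2 (sh#2), shBAP1 #1 (sh#1) and shControl (ctrl). All 6 arrays with an shRNA against BAP1 lie below the 3 control arrays in each panel, and replicates 2 and 3 of shBAP1 #2 are lowest, at -1.43 to -1.56 for the gene lists.

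The comparison of each shRNA with shControl asked which deubiquitinase transcripts differ when BAP1 is targeted. A gene was called when its Benjamini-Hochberg adjusted p, over all 19775 genes in limma's fit to the 9 arrays, was below 0.05. With shBAP1 #2, 14 of the 69 were higher, against 16.9% of all genes, and 17 were lower, against 16.5%. Together these 31 are 44.9% of the deubiquitinase genes, against 33.4% of all genes. With shBAP1 #1, 8 were higher, against 13.0% of all genes, and 14 were lower, against 12.6%. Those 22 are 31.9%, against 25.6% of all genes. The median change of the 69 genes was 0.02 with shBAP1 #2 and -0.02 with shBAP1 #1 on the log2 scale, and 0.02 and 0.01 over all genes. The median absolute change of the 69 genes was 0.24 with shBAP1 #2 and 0.18 with shBAP1 #1, against 0.15 and 0.12 over all genes. Of the 69, 63 averaged at or above the median over all probe sets, and RMA, which made the values, shrinks the changes of dim probe sets. The shares and changes over all genes, here and below, were not matched to the 69 for brightness.

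The shRNAs were compared with the same 3 control arrays, so the noise of those arrays is common to both comparisons. 5 genes were higher with both shRNAs, 7.25% of the 69 against 6.22% of all genes. Another 5 were lower with both, 7.25% against 5.49%. A further 6 were called in opposite directions, 8.70% against 3.44%. In all, 37 were called with at least 1 shRNA, 53.6% against 43.8%, and 32 with none. The direct comparison of shBAP1 #2 with shBAP1 #1, which uses no control array, called 20 genes higher (17.1% of all genes) and 16 lower (17.6% of all genes). These 36 are 52.2% of the family, against 34.7% of all genes. With a minimum of 1.5-fold, 4 of the 69 were higher and 8 were lower, against 6.75% and 8.16% of all genes. Of the 21 genes called with 1 shRNA alone, 6 with shBAP1 #1 and 15 with shBAP1 #2, 18 were called in the direct comparison and USP13, USP18 and USP38 were not. Without replicate 1 of shBAP1 #2, 18 genes were higher and 16 lower with shBAP1 #2, 5 were higher and 5 lower with both, 7 ran in opposite directions, and 21 were higher and 17 lower in the direct comparison. The count of opposite calls was 3 without replicate 2 of shControl, 4 without replicate 1 or 3 of shControl or replicate 1 of shBAP1 #1, and 5 without any 1 of the other 4 arrays. Of the 31 genes called with shBAP1 #2, 25 had further probe sets, and at least 1 of these was called the same way for 19 and the opposite way for 2. Of the 22 called with shBAP1 #1, 16 had further probe sets, with 10 and 1.

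**Figure D2:**
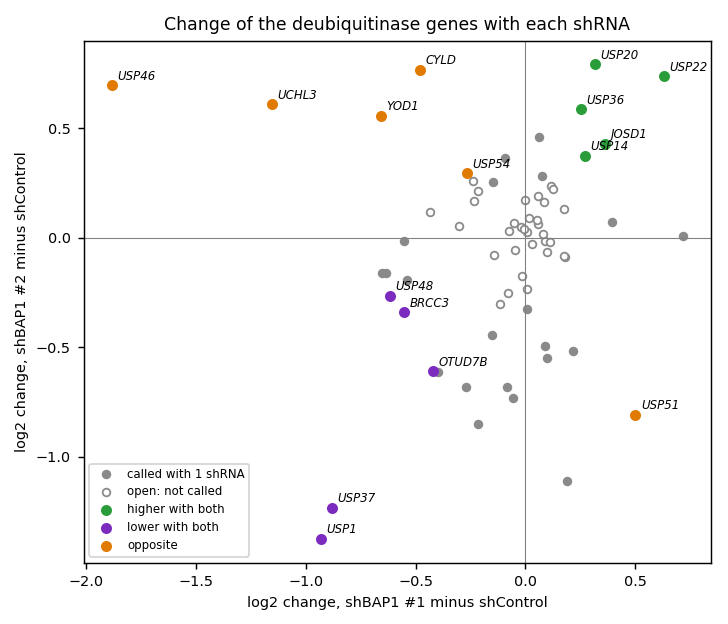
Log2 change of each of the 69 genes with shBAP1 #2 (vertical axis) against its log2 change with shBAP1 #1 (horizontal axis), each relative to the same 3 control arrays, coloured by how the gene was called, with open circles for genes called with neither. USP1 and USP37 stand lowest with both, and USP46 and UCHL3 lie in the quadrant of genes lower with shBAP1 #1 and higher with shBAP1 #2.

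**Figure D3:**
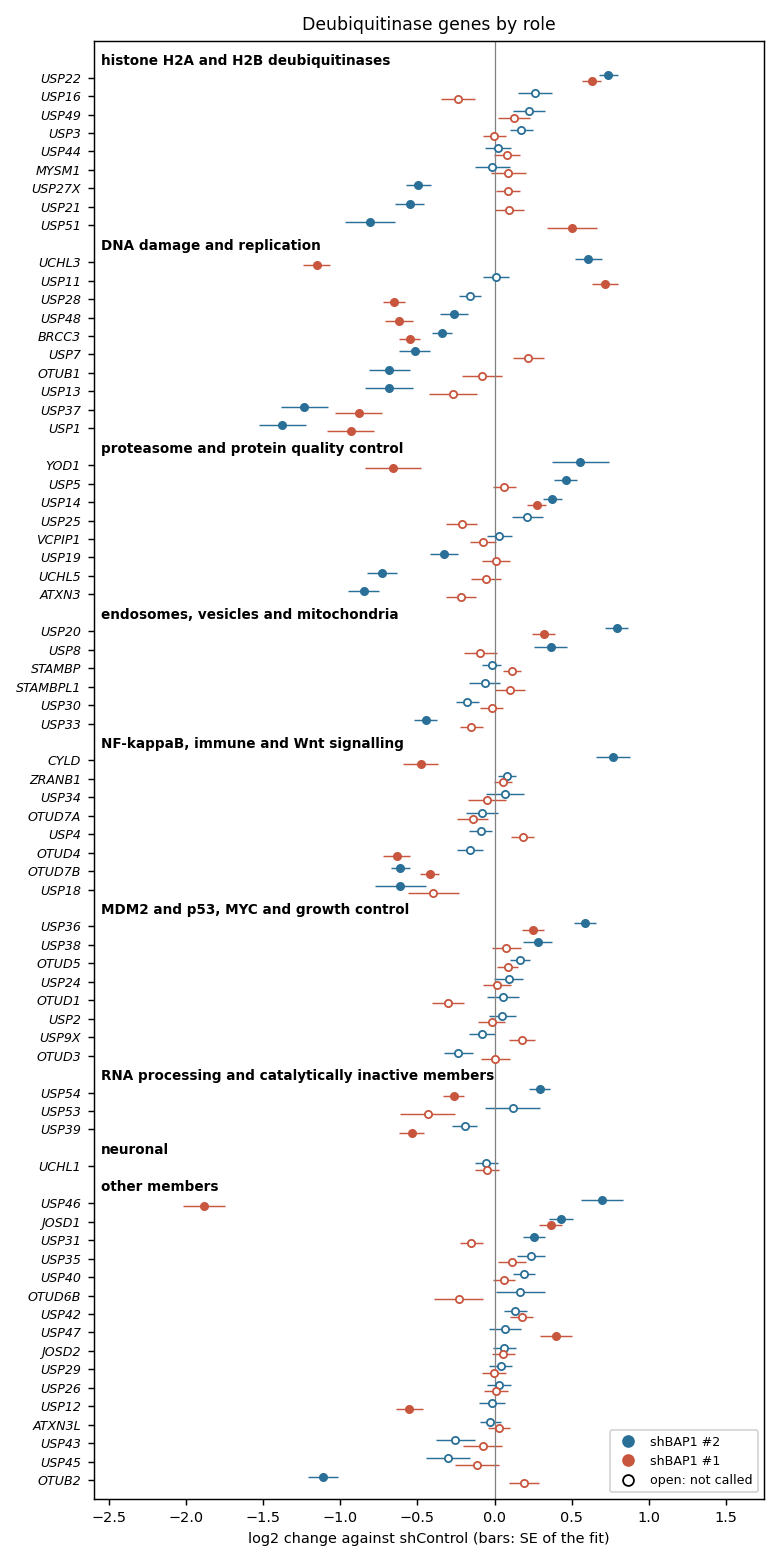
Log2 change against shControl (horizontal axis, bars are the SE of the fit, n = 3 arrays a group) for all 69 genes, grouped by role, with filled points for called changes and open points for the rest. The 10 genes of DNA damage and replication and 2 of the 8 genes of growth control are called with at least 1 shRNA. The share over all genes is 43.8%. The lists were drawn up with earlier results known, so no role is singled out by these counts.

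Promoter sequence is shown for a few genes on which the results turn: USP1, the gene lowest with both shRNAs that has an entry, OTUD7B, also lower with both, USP36, higher with both, and USP46, with the widest gap between the shRNAs. Each is the 250 bases before a transcription start in RefSeq's table for GRCh38.p14, given 5′ to 3′ on the gene's strand, and capitals mark letters that match a searched motif.
OTUD7B, chr1:150010727-150010976, minus strand: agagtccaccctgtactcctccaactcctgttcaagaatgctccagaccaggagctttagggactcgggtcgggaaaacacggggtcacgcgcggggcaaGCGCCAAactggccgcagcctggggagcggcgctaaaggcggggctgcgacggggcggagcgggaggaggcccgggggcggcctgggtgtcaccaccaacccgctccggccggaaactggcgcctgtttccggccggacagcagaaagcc
USP36, chr17:78840815-78841064, minus strand: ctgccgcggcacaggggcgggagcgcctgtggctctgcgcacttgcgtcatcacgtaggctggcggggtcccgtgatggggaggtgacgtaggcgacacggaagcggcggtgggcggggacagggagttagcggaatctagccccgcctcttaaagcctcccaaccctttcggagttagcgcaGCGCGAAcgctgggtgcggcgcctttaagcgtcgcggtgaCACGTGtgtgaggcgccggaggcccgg
USP1, first start, chr1:62436145-62436394, plus strand: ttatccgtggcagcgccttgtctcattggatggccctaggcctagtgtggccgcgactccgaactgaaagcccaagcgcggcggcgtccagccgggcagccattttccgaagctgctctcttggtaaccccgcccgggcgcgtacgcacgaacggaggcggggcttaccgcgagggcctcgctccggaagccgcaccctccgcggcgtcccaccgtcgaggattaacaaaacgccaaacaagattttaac
USP46, chr4:52659302-52659551, minus strand: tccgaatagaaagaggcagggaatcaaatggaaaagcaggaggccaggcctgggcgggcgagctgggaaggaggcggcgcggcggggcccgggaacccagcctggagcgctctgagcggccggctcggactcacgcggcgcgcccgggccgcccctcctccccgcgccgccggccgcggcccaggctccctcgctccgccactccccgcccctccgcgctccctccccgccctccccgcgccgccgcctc
The capitals in OTUD7B are the E2F letters GCGCCAA, which begin 150 bases before the start. In USP36 they are the E2F letters GCGCGAA, beginning 67 bases before the start, and the E-box CACGTG, beginning 27 bases before it. In USP1 the E2F letters lie just past the starts, from base 27 after the start shown and from base 7 after the other one, so none appear in the stretch above. USP46 held none of the searched letters. The windows shown for USP46, OTUD7B, USP36 and USP1 were 78%, 68.4%, 68.8% and 64% G or C with 34, 23, 31 and 30 CpG dinucleotides, against medians of 58% and 11 over all windows of the table, which run to 50 bases past the start. USP46 and USP36 have another start in the table, with none of the searched letters in its 250 bases, 44.4% and 49.2% G or C and 4 CpG dinucleotides each. The other window of USP1 had 63.6% and 24.

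Promoter windows were found for 52 of the 69 genes. The motifs were searched on both strands as plain letters: TTCGCGC or TTGGCGC, bound by E2F factors, AAGATGG, bound by YY1, and CACGTG, the E-box bound by MYC and others. E2F letters stood in 9 of the 52 (17.3%), against 6.10% of the 27305 genes of the promoter table, many of which were not fitted here. The 9 were OTUD4, OTUD7B, USP1, USP13, USP19, USP21, USP36, USP39 and USP49. Of these 9, 7 were called lower with 1 or both shRNAs, USP36 was higher with both, and USP49 was not called. Among the 43 genes without the letters, 9 were lower (20.9%), 9 were higher, 5 ran in opposite directions and 20 were not called. Over the fitted genes with a window, 1262 had E2F letters and 14122 did not. Of the 1262, 31.9% were lower with 1 or both shRNAs and higher with neither, against 20.6% of the 14122. YY1 letters stood in 5 of the 52 (9.62%, against 7.11% of the promoter table) and the E-box in 4 (7.69%, against 8.77%). Of the 5 with YY1 letters, 3 were lower with 1 or both shRNAs, against 27.7% of the 47 without. Of the 4 with the E-box, 2 were lower, against 29.2% of the 48 without. Over the fitted genes with a window, 1219 had YY1 letters and 14165 did not, and 1672 had the E-box and 13712 did not. Lower calls made up 26.7% of the 1219, against 21.1% of the 14165. For the E-box the shares were 25.2% and 21.1%, so lower calls were not more frequent with E2F letters alone. A match of letters is not a binding site, and none of these shares was tested.

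USP22, JOSD1, USP20, USP14 and USP36 were the 5 genes higher with both shRNAs. USP22 removes ubiquitin from histone H2B, and from H2A, as part of the SAGA coactivator. It read 10.52, 10.46 and 10.46 log2 units with shBAP1 #2 and 10.36, 10.36 and 10.40 with shBAP1 #1, against 9.78, 9.66 and 9.78 in shControl. All 6 arrays with an shRNA against BAP1 lay above all controls, by 0.74 ± 0.06 (SE) with shBAP1 #2 and 0.63 ± 0.06 with shBAP1 #1 (limma adjusted p = 1.77e-05 and 4.99e-05), which is 1.67-fold and 1.55-fold. The other 3 probe sets assigned to USP22 lie far below the median, and 1 of them was called lower with both (-1.15 with shBAP1 #2 and -0.73 with shBAP1 #1). Values of USP20, which acts on beta-adrenergic receptors and other substrates at membranes, were 6.90, 6.82 and 6.86 with shBAP1 #2 and 6.40, 6.35 and 6.40 with shBAP1 #1, against 5.95, 6.05 and 6.20 in shControl. The 3 groups did not overlap, and shBAP1 #2 was also above shBAP1 #1 by 0.47 ± 0.07 (limma adjusted p = 0.000511). The changes against shControl were 0.79 with shBAP1 #2 and 0.32 with shBAP1 #1 (limma adjusted p = 2.95e-05 and 0.00869).

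USP36, a nucleolar enzyme that stabilises MYC, read 8.48, 8.59 and 8.67 with shBAP1 #2 and 8.23, 8.23 and 8.28 with shBAP1 #1, against 7.91, 8.06 and 8.02 in shControl. Here too the groups stood apart, at 0.59 and 0.25 above shControl (SE 0.07, limma adjusted p = 0.000129 and 0.024). The call with shBAP1 #1 was lost without any 1 of its own 3 replicates or replicate 1 of shControl (changes of 0.21 to 0.26, limma adjusted p between 0.056 and 0.0998). Of the 4 other probe sets of USP36, those that read 1.18 and 0.77 with shBAP1 #2 were called higher with shBAP1 #1 too (0.38 and 0.57). The dimmer ones read 0.36 and 0.17 with shBAP1 #2 and were not called with shBAP1 #1 (0.017 and 0.0058). JOSD1, a membrane-associated enzyme of the Josephin family, read 10.52, 10.70 and 10.70 with shBAP1 #2 and 10.65, 10.46 and 10.61 with shBAP1 #1, against 10.20, 10.18 and 10.25 in shControl, so the shRNAs overlapped each other and neither overlapped the controls. The changes were 0.43 and 0.36 (SE 0.08, limma adjusted p = 0.00134 and 0.00503). USP14, which trims ubiquitin chains at the proteasome, read 11.54, 11.61 and 11.59 with shBAP1 #2 and 11.43, 11.45 and 11.55 with shBAP1 #1, against 11.19, 11.17 and 11.25 in shControl. Its changes were 0.38 and 0.27 (SE 0.06, limma adjusted p = 0.000892 and 0.00805). Another probe set of USP14 read 0.79 with shBAP1 #2 but -0.16, not called, with shBAP1 #1, so its rise with shBAP1 #1 rests on the brightest probe set.

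USP1, USP37, OTUD7B, BRCC3 and USP48 were the 5 genes lower with both. USP1 removes ubiquitin from FANCD2 and PCNA in DNA damage tolerance. It read 10.28, 9.59 and 9.75 with shBAP1 #2 and 10.32, 10.19 and 10.44 with shBAP1 #1, against 11.27, 11.12 and 11.35 in shControl. Every array with an shRNA against BAP1 lay below the controls, the shRNAs overlapped each other, and replicate 1 of shBAP1 #2 was the highest of its group. The changes were -1.38 ± 0.15 with shBAP1 #2 and -0.93 ± 0.15 with shBAP1 #1 (limma adjusted p = 8.17e-05 and 0.0012), a 2.59-fold and 1.91-fold lower value. A second probe set of USP1 read -1.33 and -1.07. The difference between the shRNAs (-0.44, limma adjusted p = 0.0461) was lost without any 1 array other than replicate 1 of shBAP1 #2, with changes of -0.30 to -0.51 and adjusted p up to 0.176.

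USP37 counteracts the degradation of cyclin A at the start of S phase. Its values were 7.63, 7.29 and 7.02 with shBAP1 #2 and 7.73, 7.40 and 7.87 with shBAP1 #1, against 8.54, 8.47 and 8.64 in shControl. Neither shRNA overlapped the controls, at -1.23 ± 0.15 and -0.88 ± 0.15 (limma adjusted p = 0.000154 and 0.00169), and both other probe sets of USP37 were lower with both as well. USP1 and USP37 were lower on the arrays on which the replication genes were lower. In these bulk RNA samples, fewer cells in a phase that expresses a transcript and less of it in each cell cannot be told apart, and the part of cell cycle position in these changes was not tested.

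OTUD7B, also named Cezanne, removes chains linked through lysine 11, a mark of mitotic degradation, and acts in NF-kappaB signalling. It read 8.03, 7.98 and 7.93 with shBAP1 #2 and 8.17, 8.20 and 8.14 with shBAP1 #1, against 8.60, 8.59 and 8.58 in shControl. The groups were tight and apart, at -0.61 ± 0.06 and -0.42 ± 0.06 (limma adjusted p = 3.65e-05 and 0.00043). Of the 5 other, dimmer probe sets of OTUD7B, 0 were called with shBAP1 #1 and those at -0.40 and -0.30 were called lower with shBAP1 #2. The mean of its probe sets gave -0.26 with shBAP1 #2 and -0.14, not called, with shBAP1 #1 (limma adjusted p = 0.00579 and 0.134). BRCC3, the zinc-dependent enzyme of the BRCA1-A and BRISC complexes, read 9.45, 9.40 and 9.50 with shBAP1 #2 and 9.16, 9.32 and 9.25 with shBAP1 #1, against 9.85, 9.76 and 9.77 in shControl. All 3 groups were apart, at -0.34 ± 0.07 and -0.55 ± 0.07 (limma adjusted p = 0.00238 and 0.000162), and its other 3 probe sets were also lower with shBAP1 #1. With shBAP1 #2, 2 of them were called lower (-0.33 and -0.27) and 1 was not called (-0.10). USP48, a nuclear enzyme that acts on histone H2A at sites marked by BRCA1, read 8.24, 7.96 and 8.14 with shBAP1 #2 and 7.71, 7.78 and 7.79 with shBAP1 #1, against 8.35, 8.26 and 8.52 in shControl. With shBAP1 #1 the gap was wide, at -0.62 ± 0.09 (limma adjusted p = 0.000589). With shBAP1 #2 it was -0.26 ± 0.09 (limma adjusted p = 0.0461), a call that was lost without any 1 array other than replicate 1 of shBAP1 #2 or replicate 2 of shControl (changes of -0.19 to -0.28, adjusted p between 0.0596 and 0.174). A further probe set of USP48 read 0.62 with shBAP1 #2 and -1.03 with shBAP1 #1, so probe sets of this gene go apart for shBAP1 #2.

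The difference between the shRNAs was smaller for OTUD7B and BRCC3. That of OTUD7B was -0.19 (limma adjusted p = 0.0296), and it was lost without replicate 1 or 2 of shBAP1 #1 or replicate 2 or 3 of shBAP1 #2 (adjusted p up to 0.102). That of BRCC3 was 0.21 (limma adjusted p = 0.0306), lost without replicate 1 or 3 of either shRNA (adjusted p up to 0.119). Of its 3 other probe sets, 1 was also called for this difference (0.51) and 2 were not.

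**Figure D4:**
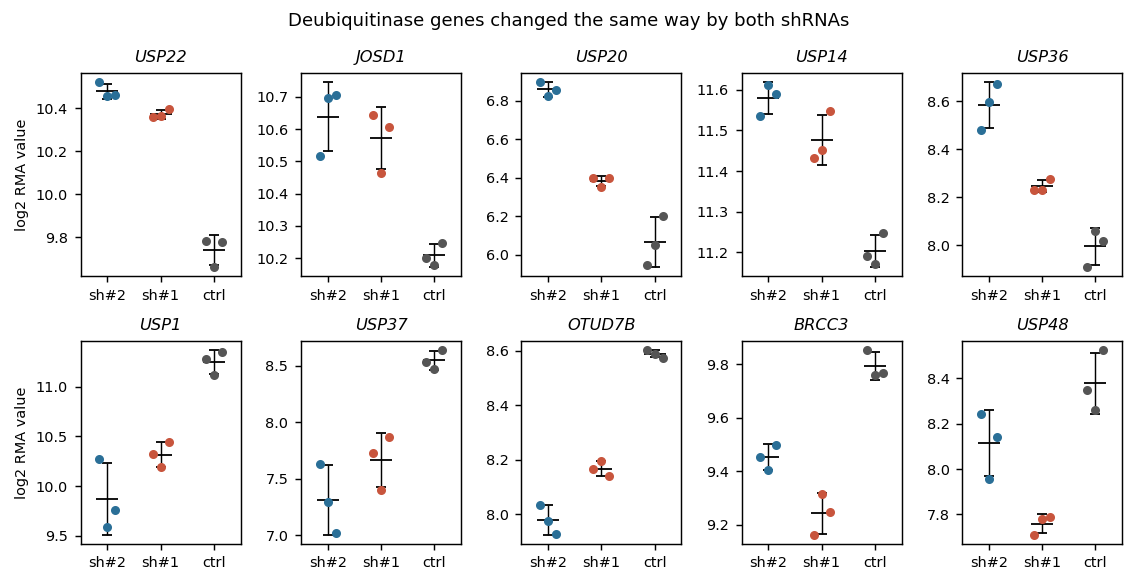
Log2 RMA value of each array (points) with mean ± SD (bars, n = 3) for the 5 genes higher and the 5 genes lower with both shRNAs, for shBAP1 #2 (sh#2), shBAP1 #1 (sh#1) and shControl (ctrl). In all 10 panels both shRNAs lie wholly on 1 side of the controls, and USP22, USP20, USP36, OTUD7B, BRCC3 and USP48 separate the shRNAs too.

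USP46, UCHL3, YOD1, USP51, CYLD and USP54 were called in opposite directions by the shRNAs. Opposite calls in 1 fit already imply a difference between the shRNAs, so the direct differences below give its size and add no support. USP46, an enzyme related to USP12 that works with WDR48, read 10.13, 10.41 and 10.43 with shBAP1 #2 and 7.42, 7.80 and 8.02 with shBAP1 #1, against 9.65, 9.64 and 9.59 in shControl. The groups were far apart. It was 0.70 ± 0.14 from shControl with shBAP1 #2 and -1.88 ± 0.14 from it with shBAP1 #1, 3.69-fold lower, the widest change of the family in either comparison (limma adjusted p = 0.00248 and 1.24e-05). Between the shRNAs the gap was 2.58 ± 0.14, or 5.98-fold (limma adjusted p = 1.24e-06). A second bright probe set of USP46 read 0.62 and -0.998, and 2 dimmer ones were not called.

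UCHL3, a relative of BAP1 that processes ubiquitin precursors, read 11.48, 11.63 and 11.67 with shBAP1 #2 and 9.64, 9.95 and 9.91 with shBAP1 #1, against 10.97, 10.97 and 11.03 in shControl. Its single probe set gave 0.61 ± 0.09 with shBAP1 #2 and -1.15 ± 0.09 with shBAP1 #1 (limma adjusted p = 0.00045 and 1.74e-05), with 1.76 between the shRNAs. CYLD, a tumour suppressor that takes linear and lysine 63 chains off NF-kappaB signalling proteins, read 9.38, 9.74 and 9.80 with shBAP1 #2 and 8.46, 8.43 and 8.29 with shBAP1 #1, against 8.91, 8.97 and 8.73 in shControl. No groups overlapped. The changes were 0.77 ± 0.11 and -0.48 ± 0.11 (limma adjusted p = 0.000424 and 0.00964), with 1.25 between the shRNAs. Of the 6 other probe sets of CYLD, 1 showed the same opposition (0.41 and -0.59), and the next brightest was called higher with shBAP1 #2 (0.32) and not with shBAP1 #1 (0.02).

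USP51, which acts on ubiquitin of histones H2A and H2B, ran the other way. It read 6.23, 5.57 and 5.54 with shBAP1 #2 and 7.06, 7.27 and 6.94 with shBAP1 #1, against 6.63, 6.63 and 6.51 in shControl. The groups were apart, and replicate 1 of shBAP1 #2 lay nearest to the controls of its group. The change with shBAP1 #2 was -0.81 ± 0.16 (limma adjusted p = 0.00284). With shBAP1 #1 it was 0.50 ± 0.16 (limma adjusted p = 0.0447), a call lost without replicate 1 or 2 of shBAP1 #1 or any 1 control array (changes of 0.41 to 0.52, adjusted p between 0.089 and 0.152). It was also lost under cyclic loess and under median centring. The direct difference was -1.31 (limma adjusted p = 0.000121). The other probe set of USP51 was called lower with shBAP1 #2 (-0.47) but not called with shBAP1 #1 (0.26).

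YOD1, an OTU enzyme that works with the segregase VCP, read 9.27, 9.77 and 10.01 with shBAP1 #2 and 8.43, 8.68 and 8.29 with shBAP1 #1, against 9.18, 9.33 and 8.87 in shControl. Replicate 1 of shBAP1 #2 lay within the control range. Its changes were 0.56 ± 0.18 and -0.66 ± 0.18 (limma adjusted p = 0.038 and 0.0224). The call with shBAP1 #2 was lost without replicate 1 of shBAP1 #1, replicate 2 or 3 of shBAP1 #2, or replicate 1 or 3 of shControl (changes of 0.39 to 0.58, adjusted p up to 0.147). That with shBAP1 #1 was lost without its replicate 1 or 3 or without replicate 1 or 2 of shControl (changes of -0.55 to -0.64, adjusted p up to 0.0877). The difference between the shRNAs, 1.21 (limma adjusted p = 0.000428), held throughout. USP54, long classed among the members without catalytic activity, read 8.96, 9.04 and 9.03 with shBAP1 #2 and 8.53, 8.34 and 8.48 with shBAP1 #1, against 8.67, 8.76 and 8.71 in shControl. These groups did not overlap either, at 0.29 and -0.27 (SE 0.07, limma adjusted p = 0.00659 and 0.0152), and 0.56 between the shRNAs. Without replicate 2 of shBAP1 #1 or replicate 2 of shControl, its call with shBAP1 #1 was lost (-0.21 and -0.24, adjusted p = 0.0623 and 0.0547).

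**Figure D5:**
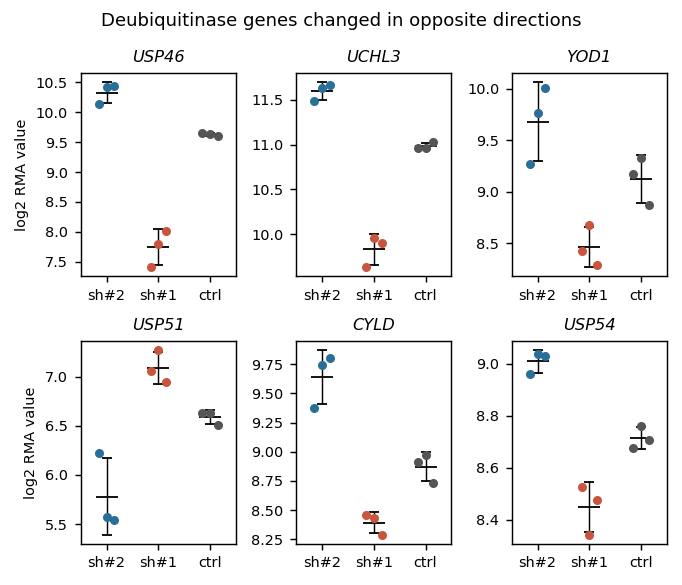
Log2 RMA value of each array (points) with mean ± SD (bars, n = 3) for the 6 genes called in opposite directions, for shBAP1 #2 (sh#2), shBAP1 #1 (sh#1) and shControl (ctrl). The controls lie between the shRNAs in each panel, except that 1 array of shBAP1 #2 falls among the controls for YOD1.

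Roles were set beside the shares over all genes given above, of which 43.8% were called with at least 1 shRNA, 16.5% were lower with shBAP1 #2 and 12.6% were lower with shBAP1 #1. The lists hold few genes and were drawn up with earlier results known, so no role is singled out by these counts. The 10 genes of DNA damage and replication were all called with at least 1 shRNA. With shBAP1 #2, 7 were lower and 1 was higher, and with shBAP1 #1, 6 were lower and 1 was higher, with medians of -0.43 and -0.58. USP1, USP37, BRCC3 and USP48 were lower with both, and UCHL3 ran in opposite directions. USP28, which binds 53BP1 and stabilises MYC, read 8.20, 8.12 and 8.13 with shBAP1 #2 and 7.67, 7.55 and 7.76 with shBAP1 #1, against 8.37, 8.29 and 8.28 in shControl. Each of its 3 probe sets was lower with shBAP1 #1, the kept one by -0.65 ± 0.07 (limma adjusted p = 8.94e-05), and none was called with shBAP1 #2 (-0.16 for the kept one). In the direct comparison shBAP1 #2 was 0.49 above shBAP1 #1 (limma adjusted p = 0.000324). USP11, which acts on BRCA2 and PALB2, was the only gene of these 10 higher with shBAP1 #1. It read 9.44, 9.53 and 9.34 with shBAP1 #2 and 10.21, 10.13 and 10.10 with shBAP1 #1, against 9.45, 9.27 and 9.56 in shControl. Its change was 0.01 with shBAP1 #2 and 0.72 ± 0.08 with shBAP1 #1 (limma adjusted p = 0.000143 for the second), and the shRNAs differed by -0.71 (limma adjusted p = 9.55e-05).

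USP7, OTUB1 and USP13 of the same role were called lower with shBAP1 #2 only. USP7, which acts on MDM2 and p53 and at replication forks, read 10.20, 9.85 and 9.80 with shBAP1 #2 and 10.63, 10.70 and 10.74 with shBAP1 #1, against 10.46, 10.41 and 10.54 in shControl. It was -0.52 ± 0.10 from shControl with shBAP1 #2 (limma adjusted p = 0.00236) and 0.22 with shBAP1 #1 (adjusted p = 0.154, and 0.0269 without replicate 1 of shBAP1 #2), with -0.74 between the shRNAs (limma adjusted p = 0.000225). OTUB1, which blocks ubiquitin-conjugating enzymes near DNA breaks, read 9.69, 9.22 and 9.08 with shBAP1 #2 and 9.96, 9.90 and 9.92 with shBAP1 #1, against 9.96, 9.98 and 10.10 in shControl. The change was -0.68 ± 0.13 with shBAP1 #2 (limma adjusted p = 0.00216). With shBAP1 #1 the kept probe set read -0.08, not called, while the other 2 probe sets of OTUB1 were called higher (0.65 and 0.79), so the direction for that shRNA depends on the probe set. USP13 changed by -0.68 ± 0.16 with shBAP1 #2 (limma adjusted p = 0.00575), and both of its other probe sets were lower too.

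Of the 9 genes listed as acting on ubiquitin of histones H2A and H2B, USP22 was higher with both and USP51 ran in opposite directions. USP21 and USP27X were lower with shBAP1 #2 only, and 5 were not called. USP48, described above as acting on histone H2A, was counted under DNA damage and not here. USP21 changed by -0.55 ± 0.09 and USP27X, a relative of USP22, by -0.49 ± 0.08 with shBAP1 #2 (limma adjusted p = 0.00111 and 0.00072). For these relatives, side by side and with no test between genes, the log2 changes with shBAP1 #2 were 0.74 for USP22, -0.49 for USP27X and -0.81 for USP51, and with shBAP1 #1 they were 0.63, 0.09 and 0.50. MYSM1, a JAMM enzyme for histone H2A, had -0.01 with shBAP1 #2 and 0.09 with shBAP1 #1 (SE 0.11). USP16, a histone H2A enzyme of mitosis, read 9.88, 9.84 and 10.04 with shBAP1 #2 and 9.42, 9.66 and 9.17 with shBAP1 #1, against 9.67, 9.64 and 9.67 in shControl. Neither change passed (0.26 and -0.24, limma adjusted p = 0.101 and 0.158), while the shRNAs differed by 0.50 ± 0.11 (limma adjusted p = 0.00473). Without replicate 2 of shBAP1 #1 both changes passed (0.26 and -0.36, adjusted p = 0.0412 and 0.024), and without its replicate 3 that with shBAP1 #2 did (adjusted p = 0.0375).

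Of 8 genes at the proteasome and in protein quality control, USP14 was higher with both, YOD1 ran in opposite directions, USP5 was higher and ATXN3, UCHL5 and USP19 were lower with shBAP1 #2 only, and USP25 and VCPIP1 were not called. ATXN3, the ataxin that edits ubiquitin chains with VCP, read 7.76, 7.43 and 7.72 with shBAP1 #2 and 8.18, 8.39 and 8.23 with shBAP1 #1, against 8.50, 8.40 and 8.57 in shControl. It was -0.85 ± 0.10 from shControl with shBAP1 #2 and -0.22 with shBAP1 #1 (limma adjusted p = 0.000104 and 0.152). The next brightest of its 7 probe sets was not called with either (-0.07 and -0.01). UCHL5, the relative of BAP1 bound to the proteasome, read 8.23, 7.84 and 7.97 with shBAP1 #2 and 8.74, 8.73 and 8.60 with shBAP1 #1, against 8.70, 8.77 and 8.77 in shControl. The arrays of shBAP1 #2 lay below all others, at -0.73 ± 0.10 against shControl, while shBAP1 #1 was at -0.06 (limma adjusted p = 0.000211 and 0.767). The changes were 0.46 ± 0.07 for USP5, which takes apart free ubiquitin chains, and -0.33 ± 0.09 for USP19, an enzyme of the endoplasmic reticulum (limma adjusted p = 0.000686 and 0.0169), with 0.06 and 0.01 for shBAP1 #1.

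In NF-kappaB, immune and Wnt signalling, OTUD7B was lower with both, CYLD ran in opposite directions, USP18 was lower with shBAP1 #2 only and OTUD4 with shBAP1 #1 only, and OTUD7A, ZRANB1, USP34 and USP4 were not called. USP18, which removes the ubiquitin-like ISG15, changed by -0.61 ± 0.16 with shBAP1 #2 and -0.40 with shBAP1 #1 (limma adjusted p = 0.0148 and 0.114). OTUD4 changed by -0.16 and by -0.64 ± 0.09 (limma adjusted p = 0.2 and 0.000351). Its other 3 probe sets were not called with shBAP1 #1 (-0.15, -0.12 and -0.013), and the dimmest was called higher with shBAP1 #2 (0.70). Of the 6 genes of endosomes, vesicles and mitochondria, USP20 was higher with both, USP8, an endosomal enzyme for growth factor receptors, was higher with shBAP1 #2 (0.37 ± 0.11, limma adjusted p = 0.0228), and USP33, a close relative of USP20, was lower with it (-0.45 ± 0.07, limma adjusted p = 0.000958). STAMBP, STAMBPL1 and USP30 were not called.

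Of the 8 genes linked to MDM2, p53, MYC and growth control, 2 were called. USP36 was higher with both, USP38 was higher with shBAP1 #2 (0.28 ± 0.09, limma adjusted p = 0.0424), and the other 6 were not called. USP9X, which protects the survival protein MCL1, had -0.08 with shBAP1 #2 and 0.18 with shBAP1 #1 (SE 0.08, limma adjusted p = 0.532 and 0.171). Its shRNAs differed by -0.26 (limma adjusted p = 0.0357), but another probe set gave 0.29 for that difference and -0.33, called, for shBAP1 #1, so no direction can be given for USP9X. The call for the difference was also lost without replicate 1 or 2 of either shRNA or replicate 1 of shControl (adjusted p up to 0.122). Among genes in no other role, OTUB2 had the most negative change with shBAP1 #2, with values of 5.84, 5.82 and 5.51 with shBAP1 #2 and 6.97, 7.06 and 7.04 with shBAP1 #1, against 6.80, 6.96 and 6.74 in shControl. It was -1.11 ± 0.10 from shControl with shBAP1 #2 and 0.19 with shBAP1 #1 (limma adjusted p = 2.23e-05 and 0.199), a gap of -1.30 between the shRNAs, while its other 2 probe sets were near 0 in both comparisons. USP47, which acts on DNA polymerase beta, read 8.91, 8.80 and 8.97 with shBAP1 #2 and 9.22, 9.40 and 9.03 with shBAP1 #1, against 8.81, 8.69 and 8.97 in shControl. Only shBAP1 #1 lay above the controls, by 0.40 ± 0.10 (limma adjusted p = 0.017). That call was lost without replicate 1 or 2 of shBAP1 #1 or of shControl (changes of 0.31 to 0.39, adjusted p up to 0.069). The difference from shBAP1 #2 (-0.33, limma adjusted p = 0.0324) was lost without replicate 1 or 2 of either shRNA (adjusted p up to 0.124). Another probe set of USP47 was also called higher with shBAP1 #1 (0.43). A dimmer one was called the opposite way for the difference (0.56) and higher with shBAP1 #2 (0.49), so the direction of the difference depends on the probe set. USP12 and the spliceosome protein USP39 were lower with shBAP1 #1 only (-0.55 ± 0.09 and -0.54 ± 0.08, limma adjusted p = 0.000891 and 0.000688), and USP31 was higher with shBAP1 #2 only (0.26 ± 0.07, limma adjusted p = 0.0208).

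The 32 genes called with neither shRNA ranged from -0.43 to 0.26 in log2 change for the kept probe sets. They include all 6 dim ones, for which a change could have gone unseen. Brighter genes of the 32 had calls in other probe sets. With shBAP1 #2 these were higher for USP24 (0.78 and 0.37), USP3 (0.68), USP25 (0.63) and ZRANB1 (0.55 and 0.23). They were also higher for USP42 (0.42 and 0.33) and OTUD5 (0.34), and lower for USP53 (-0.56) and STAMBPL1 (-0.27). With shBAP1 #1 they were higher for USP53 (0.61) and USP42 (0.33) and lower for OTUD1 (-0.38) and USP9X (-0.33). With it, those of USP25 went both ways (-0.83, -0.36 and 0.30). 6 of the 32 differed between the shRNAs: USP16, USP25, USP53 and OTUD1 were higher and USP4 and USP9X lower with shBAP1 #2 than with shBAP1 #1. Of these, USP53 had the widest gap (0.55 ± 0.18, limma adjusted p = 0.0334), with 0.12 for shBAP1 #2 and -0.43 for shBAP1 #1 against shControl, but 1 of its other 3 probe sets was called the opposite way. UCHL1, the neuronal relative of BAP1, read 5.56, 5.59 and 5.56 with shBAP1 #2 and 5.55, 5.48 and 5.70 with shBAP1 #1, against 5.71, 5.64 and 5.54 in shControl. These values overlap throughout and lie close to the median of probe set means, with changes of -0.05 and -0.05 (SE 0.07).

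The UCH relatives of BAP1 therefore gave 3 patterns: with shBAP1 #2 and shBAP1 #1, the log2 changes were 0.61 and -1.15 for UCHL3, -0.73 and -0.06 for UCHL5 and -0.05 and -0.05 for UCHL1. Of the enzymes that work with WDR48, USP46 changed by 0.70 and -1.88, USP12 by -0.02 and -0.55 and USP1 by -1.38 and -0.93. The pair OTUB1 and OTUB2 were both lower with shBAP1 #2 (-0.68 and -1.11). Pairs in which 1 gene was called and the other not were common: JOSD1 changed by 0.43 and 0.36 where JOSD2 changed by 0.06 and 0.06, and OTUD7B by -0.61 and -0.42 where OTUD7A, a dim gene, changed by -0.08 and -0.14.

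Genes outside the 69 but tied to them were counted from lists, to be read against the 6.22% of all genes higher with both, 5.49% lower with both, 3.44% opposite and 43.8% called with at least 1 shRNA. Of 21 measured genes for other deubiquitinases, their inactive relatives and SUMO proteases, 1 was higher with both (MINDY3, which cleaves lysine 48 chains, 0.68 with shBAP1 #2 and 0.35 with shBAP1 #1) and 1 was lower with both (SENP1, a SUMO protease, -0.26 and -0.35). The limma adjusted p was 4.76e-05 and 0.00322 for MINDY3 and 0.027 and 0.00752 for SENP1. The call of SENP1 with shBAP1 #2 was lost without replicate 1 or 2 of shBAP1 #2 or replicate 1 or 3 of shControl (adjusted p up to 0.0859). Of 27 measured cofactors and partners, 5 were higher and 1 was lower with both, 1 ran in opposite directions and 6 were not called, so that 21 were called with at least 1 shRNA. Without replicate 1 of shBAP1 #2, 5 were higher and 4 lower with both. The largest of these were BABAM2, NPLOC4, HGS and CASP8AP2. BABAM2 is a scaffold of the complexes that hold BRCC3, and the pair moved apart: BABAM2 was 0.42 ± 0.06 and 0.98 ± 0.06 above shControl with shBAP1 #2 and shBAP1 #1 (limma adjusted p = 0.000411 and 6.48e-06), where BRCC3 was -0.34 and -0.55. NPLOC4, a VCP adaptor that binds ubiquitin, changed by 0.79 and 0.77 (SE 0.07), HGS, a sorting protein that works beside STAMBP and USP8, by 1.00 and 0.39 (SE 0.06), and CASP8AP2, a protein of histone mRNA processing, by -0.88 and -0.89 (SE 0.11). Other probe sets of HGS and CASP8AP2 were not called. CASP8AP2 was the listed gene counted as lower with both in the main fit, and its tie to a deubiquitinase is uncertain. Of 3 measured ubiquitin precursor and activating enzyme genes (UBB, UBA1 and UBA6), 0 were called the same way by both and 1 ran in opposite directions.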

How the data were processed

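Expression was measured in 9 samples of U2OS cells. Per the submitters' processing notes, the authors made the log2 values with RMA (no version given). RMA equalises the intensity distributions of the arrays, which hides a shift of all transcripts, and it shrinks the changes of dim probe sets. Probe sets were named from the platform annotation: 41097 of 54675 had 1 symbol, 1801 had several and 11777 were not listed. Identifiers of 41043 matched a gene table of GRCh38.p14.

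Each gene was represented by its brightest probe set on average. Two-sided tests came from limma 3.58.1 (R 4.3.3), fitted without covariates to 9 arrays and 19775 genes with 6 residual and 4.33 prior degrees of freedom, and tested on simulated data. Groups and replicate numbers come from the sample titles. The number of arrays limits the precision. The members, gene lists and motifs were chosen with earlier results of these data known.

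The naming rule took members called the same way by both shRNAs, up to 6 called in opposite directions, the 4 highest and 4 lowest called with each shRNA, the 6 with the largest difference between shRNAs, and 16 with a textbook role, plus up to 4 companions a list. Members outside it are named to complete a role group. Alternatives were another scaling (cyclic loess, median centring), a filter on dim probe sets, other choices of probe set, other variance settings, the compared groups alone, a minimum of 1.5-fold, a replicate block and leaving out each array. Fitting each probe set on its own was chosen after seeing the data. Sequences are RefSeq's, build GRCh38.p14. Figures were drawn with matplotlib 3.10.9.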

Additional observations from a re-analysis of the deposited data

Results flagged for a closer look

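For 6 genes the effects of the shRNAs against the same controls differed in direction, and the direct comparison of shBAP1 #2 with shBAP1 #1 (limma, Benjamini-Hochberg adjusted over all genes, n = 3 arrays a group) gives that difference. The genes were found by opposite calls in the same fit, which already imply a difference, so these p-values add no support. As shBAP1 #2 minus shBAP1 #1 on the log2 scale, it was 2.58 for USP46 (adjusted p = 1.24e-06), 1.76 for UCHL3 (adjusted p = 1.08e-06), 1.25 for CYLD (adjusted p = 1.84e-05) and 1.21 for YOD1 (adjusted p = 0.000428). It was 0.56 for USP54 (adjusted p = 0.000109) and -1.31 for USP51 (adjusted p = 0.000121). For each of these 6 genes, every array of shBAP1 #2 lay on 1 side of every array of shBAP1 #1. Groups of 3 are too small for a test of single outlying arrays.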

How the results depend on the processing

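Counts of called genes stayed within 1.5 times under cyclic loess, median centring, the filter on dim probe sets, probe sets with no shared suffix, the compared groups alone and a trended, robust prior. With the mean of a gene's probe sets, both shRNAs raised 3 genes and lowered 3, and 9 were lower with shBAP1 #2 than with shBAP1 #1. With array weights, 8 were lower with both. A minimum of 1.5-fold left 6 higher and 10 lower with shBAP1 #2, 2 and 8 with shBAP1 #1, and 1 and 2 with both. It left 4 and 8 between the shRNAs, and 2 in opposite directions. Over all genes it left 5.61% higher and 7.93% lower with shBAP1 #2, and 4.39% and 4.85% with shBAP1 #1. Between the shRNAs it left 6.75% and 8.16%. Beside these percentages, the 2 higher with shBAP1 #1 and the 4 higher between the shRNAs were smaller shares of the family. The other counts with such a percentage were larger shares. No share over all genes is given for the remaining counts here. Leaving out 1 array at a time gave 11 to 18 higher and 14 to 17 lower with shBAP1 #2, 5 to 9 and 12 to 15 with shBAP1 #1, 4 to 5 and 4 to 5 with both, 17 to 21 and 11 to 17 between the shRNAs, and 3 to 7 in opposite directions. The count of 5 higher with shBAP1 #1 came without replicate 1 or 2 of shBAP1 #1 or replicate 1 of shControl. The count of 3 in opposite directions came without replicate 2 of shControl. Signs turned with the probe set, and the cause was not tested. With the mean of probe sets, USP22 (-0.10) and USP48 (0.12) turned for shBAP1 #2 and OTUB1 (0.45) for shBAP1 #1. With probe sets whose suffix marks no sharing, USP48 (0.62), ATXN3 (0.067) and UCHL5 (0.018) turned for shBAP1 #2, and USP14 (-0.16), CYLD (0.017), USP9X (-0.33) and OTUB1 (0.65) for shBAP1 #1. HGS then read -0.14 and -0.064, with -0.073 between the shRNAs, and that difference was 0.29 for USP9X. With the next brightest probe set, an alternative chosen after seeing the data, USP48 read 0.17 with shBAP1 #2 and 0.089 with shBAP1 #1, CYLD read 0.017, OTUB1 0.65 and USP9X -0.33 with shBAP1 #1, and USP9X (0.29) and HGS (-0.14, -0.064 and -0.073) turned as before. Samples with the same replicate number did not deviate together in every pair (correlations from -0.21 to 0.22). For shBAP1 #1 with shControl they were 0.11, 0.20 and 0.22, against -0.22 to 0.04 for unlike numbers. For shBAP1 #2 they were 0.07, 0.18 and -0.105 with shControl and 0.02, 0.04 and -0.21 with shBAP1 #1. The numbers were not taken as pairs in the main fit. With the replicate block, counts were 14 higher and 18 lower with shBAP1 #2, 8 and 15 with shBAP1 #1, 5 and 5 with both, 19 and 15 between the shRNAs, and 6 in opposite directions. Probe sets near background, as for the 6 dim genes, limit what could be seen.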
